A study of Mus musculus with 2 samples.

Results

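The insulin-like growth factor (IGF) genes were read in single cells of mouse bowel and mesenteric fat: the ligands Igf1 and Igf2, the receptor Igf1r and the binding proteins Igfbp2, Igfbp3, Igfbp4, Igfbp5, Igfbp6 and Igfbp7. They were taken by symbol and are 9 of the 32285 genes of the count matrix. The study made 2 droplet (10x Genomics) libraries, 1 from animals with a surgical cut in the colon (colotomy) and 1 from animals with a sham operation. Both came from B6/C57 mice aged 8 to 12 weeks and were collected on day 14 after surgery, and each pooled digested bowel with digested mesenteric adipose tissue. Neither group has a replicate. Differences below are therefore differences between these 2 libraries, the operation could not be tested, and intervals cover counting error only.

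IGF-1 and IGF-2 are secreted growth factors that act through the receptor tyrosine kinase IGF1R, and so feed the PI3K-AKT and MAPK pathways. IGF-binding proteins hold the ligands in blood and tissue fluid and can lengthen their life, keep them from the receptor or bring them to it, while proteases such as PAPP-A release them. In adult tissue outside the liver, IGF-1 is made largely by stromal cells and macrophages, and fibroblasts and smooth muscle cells respond to it during repair.

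The colotomy library held 12002711 gene UMIs (counted RNA molecules) over 15547 barcodes and the sham library 74006762 over 44814. A barcode was kept as a cell if it had 500 or more gene UMIs over 300 or more genes and fewer than 20% of its UMIs were mitochondrial. This left 9246 cells with a median of 778.5 UMIs and 42143 with a median of 1328. The libraries had 108 barcodes in common. The counts of the 2 hashtags that marked the tissues did not split into separate peaks (at most 0.975 SD apart), so bowel and fat are read together. Xist, expressed from the inactive X chromosome of female cells, stood at 394 CPM (UMIs of a gene scaled to a total of 1000000) in the colotomy library. In the sham library it stood at 0.724 CPM, and 4 Y-linked genes stood at 156 and 210 CPM. The colotomy library thus held RNA of both kinds, and the sham library almost only that of the Y-linked genes. Between the libraries as wholes, the sex of the animals and the operation cannot be told apart. Cells fell into 24 clusters, found without the 9 IGF genes, and 19 clusters took the name of a cell class from marker genes. The 13 classes with at least 50 cells in each library were compared, among them fibroblast-like cells (3449 colotomy and 5546 sham cells), mesothelial-like cells, of the sheet that covers gut and mesentery (177 and 771), and macrophage-like cells (642 and 1842). Each of these 3 classes carried its own markers: the 9 fibroblast markers summed to 43997 and 18852 CPM in fibroblast-like cells, the 8 mesothelial markers to 3869 and 3477 CPM in mesothelial-like cells, and the 9 macrophage markers to 5518 and 6184 CPM in macrophage-like cells.

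All 9 genes are protein-coding and lie on 6 chromosomes of the mouse genome (mm10, GENCODE annotation). The ligands are Igf1 (ENSMUSG00000020053, chr10:87858265-87937042, plus strand) and Igf2 (ENSMUSG00000048583, chr7:142650766-142666816, minus strand), and the receptor is Igf1r (ENSMUSG00000005533, chr7:67952827-68233668, plus strand). Igfbp2 (ENSMUSG00000039323, chr1:72824503-72852474, plus strand) and Igfbp5 (ENSMUSG00000026185, chr1:72857932-72874884, minus strand) are neighbours that point towards each other. Igfbp3 (ENSMUSG00000020427, chr11:7206086-7213923, minus strand) and Igfbp4 (ENSMUSG00000017493, chr11:99041244-99054392, plus strand) share chromosome 11. Igfbp6 (ENSMUSG00000023046, chr15:102144362-102149511, plus strand) and Igfbp7 (ENSMUSG00000036256, chr5:77349240-77408041, minus strand) stand alone.

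The promoters of Igfbp4, Igfbp5 and Igfbp6 are shown because mesothelial-like cells held much RNA of each, and the first pair stood higher in the colotomy library there while Igfbp6 did not. They come from RefSeq (GRCm38.p6) and run 5′ to 3′ on the strand of the gene up to the start site, leaving out annotated exon bases. Capitals mark the motifs searched on both strands, the TATA box (TATAAA, reverse TTTATA), the CCAAT box (CCAAT, reverse ATTGG) and the core of the TEAD motif (GGAATG, reverse CATTCC), and no marked motifs overlap.
Igfbp4, chr11:99040994-99041243, plus strand: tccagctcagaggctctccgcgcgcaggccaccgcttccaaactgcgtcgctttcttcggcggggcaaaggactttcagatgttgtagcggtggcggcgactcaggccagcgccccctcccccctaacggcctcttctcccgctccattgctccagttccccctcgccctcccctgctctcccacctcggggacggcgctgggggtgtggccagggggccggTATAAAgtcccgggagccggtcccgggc
Igfbp5, chr1:72874885-72875115, minus strand: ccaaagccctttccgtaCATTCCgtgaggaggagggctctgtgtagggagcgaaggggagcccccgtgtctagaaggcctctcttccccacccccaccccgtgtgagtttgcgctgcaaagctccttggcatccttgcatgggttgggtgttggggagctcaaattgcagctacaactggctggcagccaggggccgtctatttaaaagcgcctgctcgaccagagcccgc
Igfbp6, chr15:102143936-102144185, plus strand: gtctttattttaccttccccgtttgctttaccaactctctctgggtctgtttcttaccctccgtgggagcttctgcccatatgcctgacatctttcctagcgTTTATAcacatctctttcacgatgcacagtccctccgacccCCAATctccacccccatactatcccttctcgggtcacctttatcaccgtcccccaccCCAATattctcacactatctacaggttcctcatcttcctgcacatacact
The Igfbp4 promoter has a TATA box that begins 28 bases before the start. The Igfbp5 promoter has the TEAD core on the reverse strand, 233 bases before the start, which counts 19 exon bases left out of the sequence. The Igfbp6 promoter has a TATA box on the reverse strand 148 bases before the start and a CCAAT box at 107 and at 50 bases. Distances are to RefSeq starts, which for Igfbp5 and Igfbp6 differ from the GENCODE gene starts. These matches are descriptions of sequence: of 32851 mouse promoters cut to the same 250 bases, 12.4% hold the TATA box, 33.8% the CCAAT box and 12.6% the TEAD core.

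Igf1 came mainly from fibroblast-like cells in both libraries, and mesothelial-like cells stood in another place among the classes in each. In the colotomy library it was highest in mesothelial-like cells, at 792 CPM of the UMIs of the class (95% Poisson interval 657 to 947), then in fibroblast-like cells at 586 CPM (558 to 615) and macrophage-like cells at 212 CPM (176 to 253). In the sham library fibroblast-like cells led at 337 CPM (326 to 349), followed by macrophage-like cells at 148 CPM (135 to 161), while mesothelial-like cells stood at 60.5 CPM (48.4 to 74.7), within the intervals of smooth muscle-like (54.4), vascular endothelial-like (49.6) and lymphatic endothelial-like cells (47.2). The intervals of the top 2 classes of each library lay apart from each other and from the third. Below macrophage-like cells in the colotomy library, the intervals of neighbours overlapped from smooth muscle-like cells (161 CPM) down to epithelial-like cells (72.3 CPM). Fibroblast-like cells held 72.7% of all Igf1 UMIs of the colotomy library and 71.0% of those of the sham library, beside 32.2% and 13.6% of the UMIs of all genes. Mesothelial-like cells held 5.29% and 1.89% of the Igf1 UMIs (1.74% and 2.02% of all UMIs). Macrophage-like cells held 5.34% and 11.6% (6.54% and 5.06% of all UMIs).

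**Figure D1:**
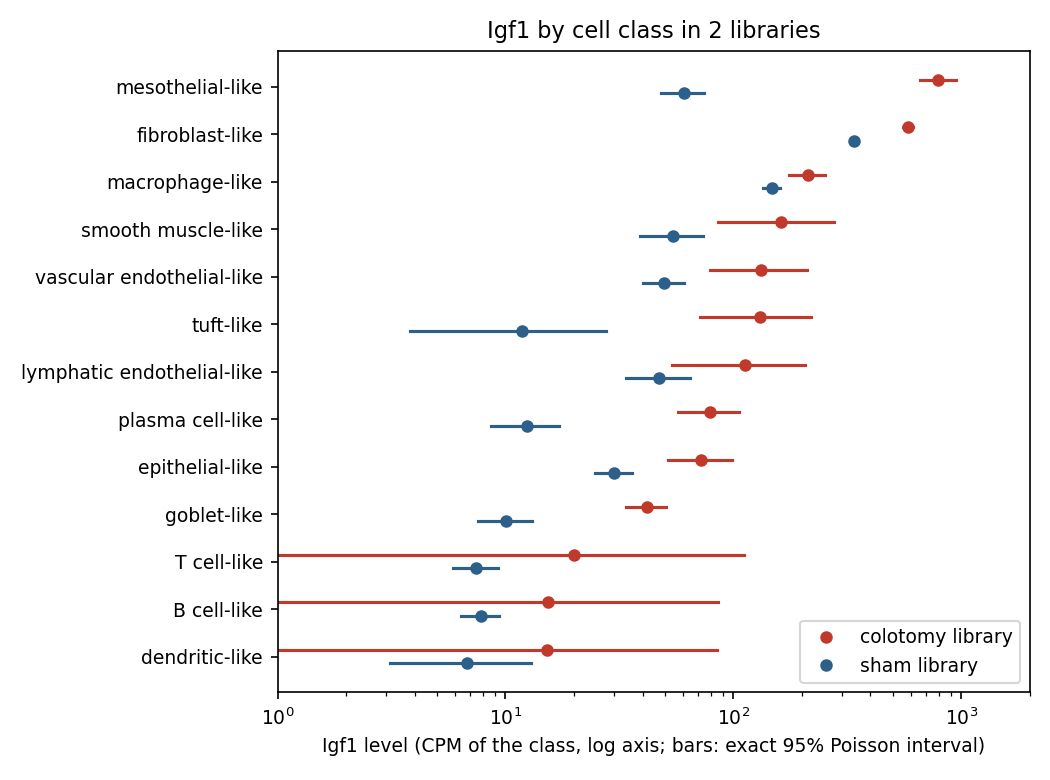
Igf1 level (CPM, log axis) in the 13 cell classes, with colotomy in red and sham in blue, and bars for the exact 95% Poisson interval of the counts. The gap between libraries is wide in mesothelial-like cells, at 792 against 60.5 CPM, and every other class also stands higher in the colotomy library. T cell-like, B cell-like and dendritic-like cells do so on 1 colotomy UMI each.

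Igf1 stood higher in the colotomy library in each of the 13 classes, among them classes not known as its sources. The ratios of fibroblast-like (1.74) and macrophage-like cells (1.44) were the lowest. Smooth muscle-like cells were 2.97-fold higher (1.46 to 5.66) and vascular endothelial-like cells 2.68-fold (1.52 to 4.47). Epithelial-like cells were 2.41-fold higher (1.64 to 3.48) and lymphatic endothelial-like cells 2.37-fold (1.06 to 4.83). T cell-like, B cell-like and dendritic-like cells held 1 colotomy UMI each. Plasma cell-like cells, which make antibodies, stood at 78.6 against 12.4 CPM and mucus-making goblet-like cells at 41.7 against 10.1 CPM. Tuft-like cells, chemosensory cells of the epithelium, held 14 and 5 Igf1 UMIs, 131 against 11.8 CPM, a ratio of 11.1 (3.78 to 39.4) whose interval overlaps that of mesothelial-like cells. T and B cell-like cells together stood at 17.4 CPM (2.11 to 62.9, 168 cells) against 7.63 CPM (6.58 to 8.79). RNA free in the droplets was not measured apart from cells, and its part in the values of other classes was not tested beyond the subtractions given with them.

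Of fibroblast-like, macrophage-like and mesothelial-like cells, the last showed the widest Igf1 difference. Their 120 UMIs among 151480 in the colotomy library and 86 among 1422304 in the sham library gave a 13.1-fold higher level (95% counting interval 9.85 to 17.5). The colotomy UMIs were spread over 70 of 177 cells with at most 5 in 1 cell, and the sham UMIs over 60 of 771 cells with at most 7. After each cell was thinned to 1000 UMIs, 19 of 42 colotomy cells (45.2%, Clopper-Pearson interval 29.8% to 61.3%) and 27 of 626 sham cells (4.31%, 2.86% to 6.21%) had an Igf1 UMI, with 135 and 145 shallower cells left out. Without thinning the shares were 39.5% and 7.78%.

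Several other values moved with this difference. The 9 fibroblast markers summed to 15184 CPM in colotomy mesothelial-like cells and 9098 CPM in sham ones, with all 9 higher and none at 0. Col1a1, a chain of type I collagen, stood at 1538 against 456 CPM. In fibroblast-like cells of the colotomy library Col1a1 stood at 10850 CPM. Among mesothelial-like cells with no UMI of Col1a1 or Col1a2, Igf1 stood at 742 CPM in 34 colotomy cells and 31.7 CPM in 207 sham cells. These cells held only 25602 and 284144 UMIs of all genes. The 9 macrophage markers summed to 706 and 239 CPM, with 8 of 9 higher and Folr2 at 0 in the colotomy cells. The 8 mesothelial markers were close, at 3869 and 3477 CPM, with 6 of 8 higher. The part of fibroblast or macrophage RNA in the Igf1 difference was not tested.

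Sex-linked RNA moved with it too. Xist stood at 1736 CPM in colotomy mesothelial-like cells and 1.41 CPM in sham ones, and the Y-linked genes at 66.0 and 202 CPM. Among cells that held Y-linked RNA but lacked Xist, 8 colotomy cells held 4 Igf1 UMIs (459 CPM, 125 to 1176) and 241 sham cells held 19 (38.1 CPM, 22.9 to 59.5). Of the 120 colotomy UMIs of Igf1, 89 lay in the 104 cells that held Xist and no Y-linked RNA (980 CPM, 787 to 1205), and 27 in 63 cells with neither (539 CPM, 355 to 784). In the sham library 7 of the 86 lay in 1 cell, which held Xist, and 60 in 529 cells with neither (65.1 CPM, 49.7 to 83.8). The part of sex in the Igf1 values was not tested. When each cell was named by its own markers rather than by its cluster, 28 colotomy and 245 sham cells were called mesothelial-like, and Igf1 stood at 399 and 79.5 CPM.

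Fibroblast-like cells held 1649 Igf1 UMIs in the colotomy library and 3228 in the sham library, 1.74-fold higher per UMI (1.64 to 1.85). An Igf1 UMI was found after thinning in 36.8% of 679 cells from colotomy (33.2% to 40.6%) and in 24.1% of 4499 from sham (22.9% to 25.4%), with 2770 and 1047 cells left out. Unthinned shares were 29.5% and 32.9%, the reverse order at unequal depth. In those with Y-linked RNA but without Xist (384 and 1590), Igf1 stood at 611 and 283 CPM. The 693 colotomy cells with Xist and no Y-linked RNA held it at 454 CPM (402 to 512), below the 611 CPM (532 to 700) of the former.

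The class was a different mix of cells in the 2 libraries. Cluster 1, led by Efhd1 and with the adventitial gene Pi16 among its leading genes, held 838 colotomy and 1477 sham cells. Cluster 2, led by Inmt and Gdf10, held 723 and 3493. Cluster 6, led by Ptn, Col12a1 and the protease inhibitor Timp1, held 1866 and 195. Cluster 21, led by Adamdec1 and Bmp5, held 22 and 381 and had 3 of the 9 fibroblast markers. Most colotomy cells thus lay in cluster 6 and most sham cells in cluster 2.

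Igf1 differed by cluster as well as by library. In cluster 1 it stood at 251 against 175 CPM (1.44-fold, 1.2 to 1.71) and in cluster 2 at 623 against 411 CPM (1.52-fold, 1.34 to 1.70). In cluster 6 it stood at 716 against 820 CPM (0.873-fold, 0.774 to 0.986). Within cluster 6 the order of the libraries was therefore turned round. In both libraries this cluster had a higher Igf1 value than clusters 1 and 2 at this resolution. In the colotomy library, however, its interval (675 to 758) overlapped that of cluster 2 (556 to 695). Finer clusters (Leiden resolution 2) gave another order in the colotomy library, where a cluster led by Inmt and Gdf10 stood at 998 CPM (858 to 1155, 247 cells) and one led by Ptn and Col12a1 at 715 CPM (673 to 759, 1744 cells). The sham values of that pair were 576 and 775 CPM. Another fine cluster led by Inmt and Gdf10 stood far lower, at 324 CPM (264 to 393, 396 cells) in the colotomy library and 180 CPM in the sham library. Cluster 21 held 5 Igf1 UMIs in its 22 colotomy cells and 63 in its sham cells (298 and 114 CPM).

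**Figure D2:**
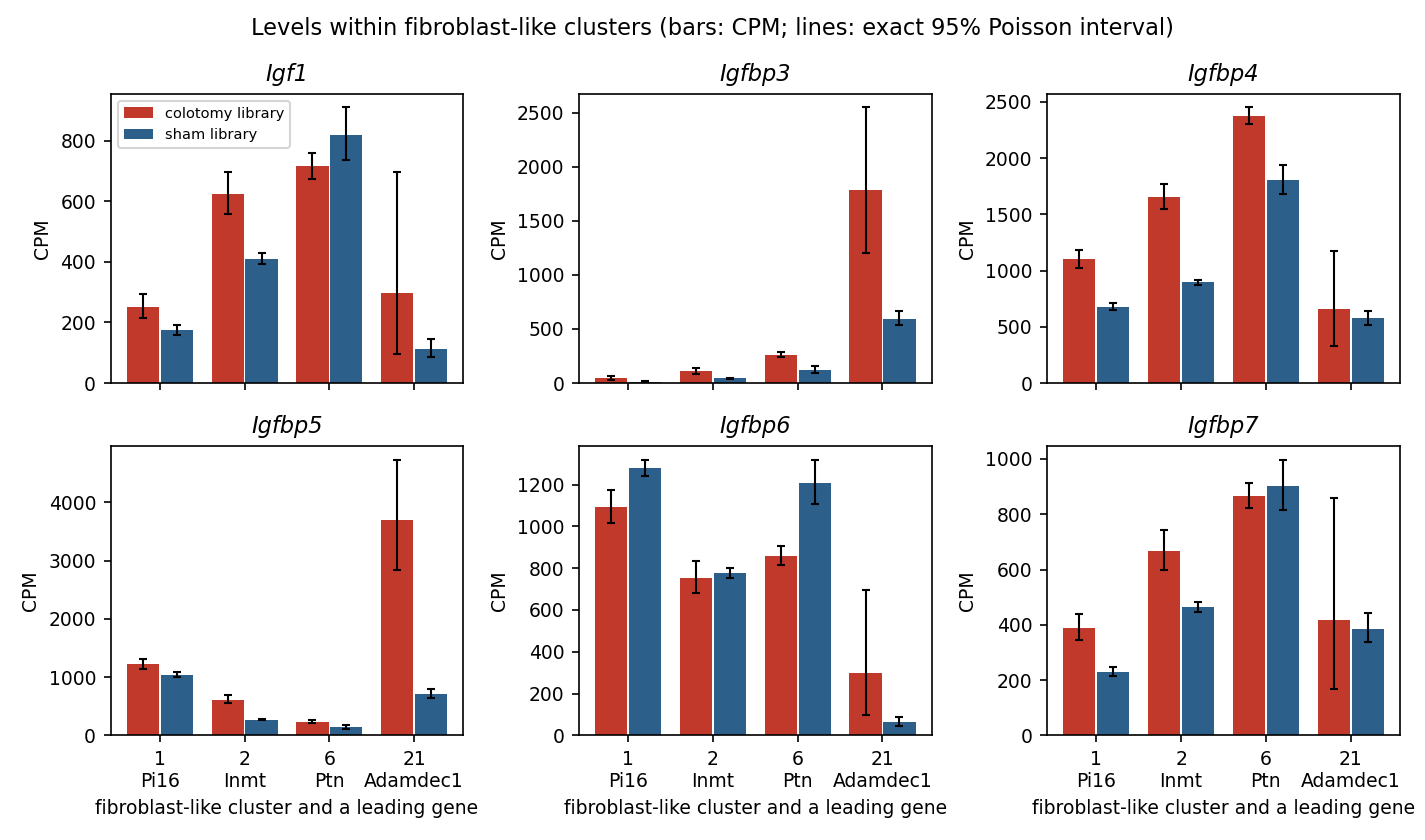
Levels (CPM, bars with exact 95% Poisson intervals as lines) of 6 IGF genes in the 4 fibroblast-like clusters, colotomy in red and sham in blue. Among these 4 clusters Igf1 is highest in cluster 6 in both libraries (716 and 820 CPM). In the colotomy library that interval overlaps those of clusters 2 and 21. Igfbp5 is highest in cluster 1 in the sham library (1042 CPM) and in cluster 21 in the colotomy library (3693 CPM). Cluster 21 has only 22 colotomy cells.

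Macrophage-like cells held 121 Igf1 UMIs at 212 CPM in the colotomy library and 526 at 148 CPM in the sham library, 1.44-fold (1.17 to 1.75), short of the 1.5-fold used to call a gene higher or lower. Cluster 14, led by Mmp12, Spp1 and Gpnmb, held 349 colotomy and 90 sham cells and Igf1 at 246 against 118 CPM (2.09-fold, 1.33 to 3.40). Cluster 15, led by Folr2 and Cbr2, genes of resident macrophages, held 293 and 1752 cells and Igf1 at 158 against 149 CPM (1.06-fold, 0.730 to 1.49). The ratio was larger in cluster 14, but the difference between the clusters was not tested. In those that held Y-linked RNA but lacked Xist (47 and 588 cells), Igf1 stood at 326 CPM (178 to 546, on 14 UMIs) and 139 CPM (120 to 160). In the 464 and 1252 macrophage-like cells with neither RNA, it stood at 172 CPM (134 to 218) and 153 CPM (137 to 171). The 122 colotomy cells with Xist and no Y-linked RNA held it at 278 CPM (191 to 390).

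Fibroblast RNA moved with the macrophage values. The 9 fibroblast markers summed to 3178 CPM in colotomy macrophage-like cells and 270 CPM in sham ones, with all 9 higher and none at 0. Among macrophage-like cells with no UMI of these markers (343 and 1270), Igf1 stood at 166 and 151 CPM. With the level of plasma cell-like cells of the same library subtracted, it stood at 133 and 135 CPM, and with that of T and B cell-like cells subtracted at 195 and 140 CPM, so the value depends on the class that is subtracted. The share of thinned cells with an Igf1 UMI was 18.2% of 176 cells from colotomy (12.8% to 24.7%) and 13.7% of 1492 from sham (12.0% to 15.6%), with 466 and 350 cells left out and overlapping intervals. Unthinned shares were 14.0% and 22.7%.

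For comparison with a class not known to make Igf1, 17 of 243 thinned plasma cell-like cells of the colotomy library had an Igf1 UMI (7.0%, 4.13% to 11%), against 10 of 922 in the sham library (1.08%, 0.521% to 1.99%). T and B cell-like cells gave 0 of 12 in the colotomy library and 0.681% of 11596 in the sham library. With a floor of 3 cells in place of 0, the former allows a share of up to 25%, which is not a Clopper-Pearson bound. Mesothelial-like cells of the sham library (4.31%) were thus above plasma cell-like cells of the same library but far under fibroblast-like cells.

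**Figure D3:**
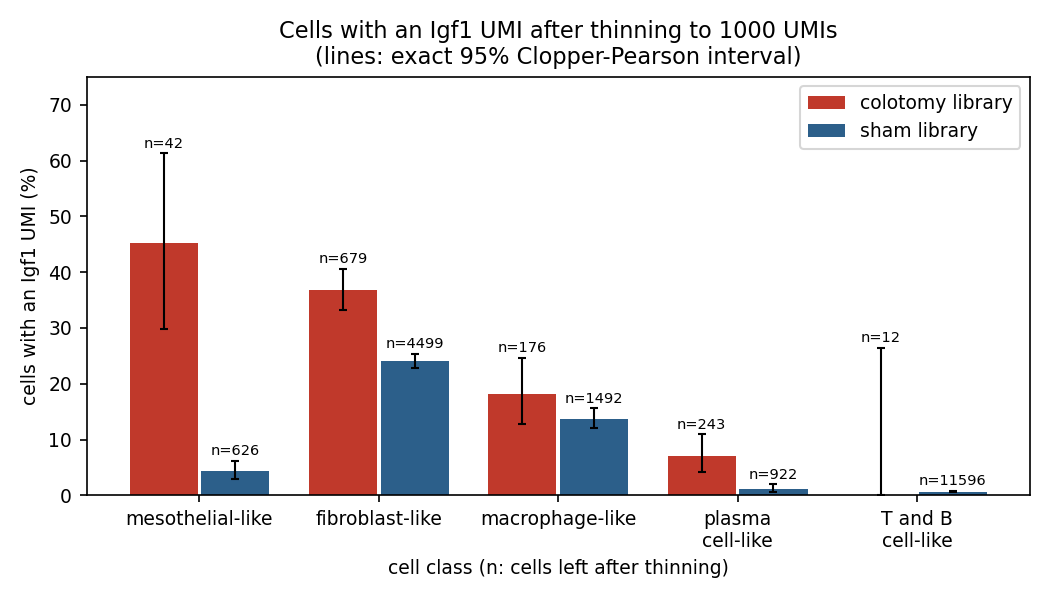
Share of cells with an Igf1 UMI after thinning each cell to 1000 UMIs (%), in 5 groups of cells, with colotomy in red, sham in blue and lines for the exact 95% Clopper-Pearson interval. Mesothelial-like cells stand at 4.31% in the sham library and at 45.2% of only 42 cells in the colotomy library, and plasma cell-like cells stand at 1.08% and 7.0%.

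Igf2, the ligand that is abundant in the embryo and silenced in most adult mouse tissue, was near the limit of detection. All kept cells held 29 Igf2 UMIs in the colotomy library and 36 in the sham library. Fibroblast-like cells held 15 of the 29 (5.33 CPM, 2.98 to 8.80) and 6 of the 36 (0.627 CPM, 0.230 to 1.36), 8.51-fold (3.12 to 26.8) on few UMIs. Of those 15, cluster 6 held 14, and its sham cells held 0. Smooth muscle-like cells held 1 and 8, and lymphatic endothelial-like cells 4 and 4. Macrophage-like and epithelial-like cells held 0 in both libraries.

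Igf1r, the receptor through which both ligands signal, was spread over more classes than Igf1. In the sham library it ranged from 127 CPM in smooth muscle-like, 93.5 in mesothelial-like, 87.2 in fibroblast-like and 81.0 in vascular endothelial-like cells down to 7.15 CPM in B cell-like cells, and neighbours among the first 4 had overlapping intervals. In the colotomy library mesothelial-like (211), vascular endothelial-like (184) and smooth muscle-like cells (174 CPM) led with overlapping intervals. Mesothelial-like cells held it at 211 against 93.5 CPM (2.26-fold, 1.49 to 3.34), and vascular endothelial-like cells at 184 against 81.0 CPM (2.28-fold, 1.43 to 3.49). In fibroblast-like cells it stood at 106 against 87.2 CPM (1.21-fold, 1.06 to 1.39), and within cluster 6 at 109 against 41.8 CPM (2.62-fold, 1.61 to 4.52). Macrophage-like cells held 52.6 and 42.4 CPM (1.24-fold, 0.809 to 1.84).

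The binding proteins each had their own set of classes. Igfbp2, a binding protein with a preference for IGF-2, was rare, with 34 UMIs in the colotomy library and 65 in the sham library. In the sham library mesothelial-like cells held 45 of the 65, in 39 cells (31.6 CPM, 23.1 to 42.3), apart from every other class. In the colotomy library mesothelial-like cells held 2 UMIs (13.2 CPM, 1.60 to 47.7), a ratio of 0.417 (0.0490 to 1.60) whose interval takes in equal levels. Smooth muscle-like cells of the colotomy library held 21 UMIs (261 CPM) in 5 of 97 cells, 11 of them in 1 cell, and those of the sham library 0 in 451 cells.

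Igfbp3, the main carrier of IGF in blood and in tissue a product of vessels and stroma, was highest in vascular endothelial-like cells of both libraries. They held 649 CPM (521 to 800) in the colotomy library and 279 CPM (256 to 304) in the sham library, 2.32-fold higher (1.83 to 2.92). Fibroblast-like cells held 192 against 69.4 CPM (2.77-fold, 2.47 to 3.11). All 3 large fibroblast-like clusters were higher in the colotomy library, at 43.6 against 13.2 CPM in cluster 1, 111 against 43.4 in cluster 2 and 262 against 121 in cluster 6. In the small cluster 21 Igfbp3 stood at 1787 CPM in 22 colotomy cells and 597 CPM in 381 sham cells. Igfbp3 was thus unevenly placed within the class, and cluster 21 stood above vascular endothelial-like cells.

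Igfbp4, a target of the protease PAPP-A that mostly holds IGF back from the receptor, was high in mesothelial-like and fibroblast-like cells. Mesothelial-like cells held 2099 CPM (1875 to 2343) in the colotomy library and 1358 CPM (1298 to 1420) in the sham library, 1.55-fold (1.37 to 1.74). Fibroblast-like cells held 1931 CPM (1880 to 1984) and 849 CPM (831 to 868), 2.27-fold (2.20 to 2.35). By cluster it stood at 1099 against 680 CPM in cluster 1, 1654 against 895 in cluster 2 and 2375 against 1804 in cluster 6, so the gap within each of these was smaller (1.62-, 1.85- and 1.32-fold) than in the class as a whole. Macrophage-like cells as a class held 270 and 311 CPM (0.869-fold, 0.729 to 1.03), but neither of their clusters was lower in the colotomy library. Cluster 14 held 209 against 94.1 CPM (2.22-fold, 1.34 to 3.84) and cluster 15 held 367 against 324 CPM (1.13-fold, 0.891 to 1.42).

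Igfbp5, which binds extracellular matrix and is made by mesenchymal cells, marked mesothelial-like, lymphatic endothelial-like and smooth muscle-like cells. In the sham library these held 1388, 1499 and 1452 CPM with overlapping intervals. In the colotomy library mesothelial-like cells held 3420 CPM (3131 to 3727), lymphatic endothelial-like cells 2241 CPM (1941 to 2574) and smooth muscle-like cells 1491 CPM (1236 to 1782), all apart from each other. The library ratio was 2.46 (2.23 to 2.72), 1.49 (1.28 to 1.74) and 1.03 (0.843 to 1.24) in that order. Fibroblast-like cells as a class were level, at 557 against 534 CPM (1.04-fold, 0.985 to 1.10). Within cluster 2, however, Igfbp5 stood at 615 against 269 CPM (2.28-fold, 2.02 to 2.58), in cluster 6 at 231 against 137 CPM (1.69-fold, 1.28 to 2.26) and in cluster 1 at 1225 against 1042 CPM (1.18-fold, 1.09 to 1.27). In the small cluster 21 Igfbp5 stood at 3693 CPM (2831 to 4734) in 22 colotomy cells and 714 CPM in 381 sham cells (5.17-fold, 3.89 to 6.77). Cluster 6, which held most of the colotomy fibroblast-like cells, had the least Igfbp5 of the 4 clusters in either library.

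Igfbp6, which binds IGF-2 far more tightly than IGF-1, was highest in mesothelial-like cells and next in fibroblast-like cells of both libraries. Mesothelial-like cells held 2443 CPM (2200 to 2705) and 2857 CPM (2770 to 2947), 0.855-fold (0.766 to 0.951). Fibroblast-like cells held 891 CPM (857 to 927) and 914 CPM (895 to 934), 0.975-fold (0.932 to 1.02). Within cluster 6 it stood at 858 against 1208 CPM (0.710-fold, 0.642 to 0.787), within cluster 1 at 1093 against 1279 CPM and within cluster 2 at 755 against 777 CPM. No fibroblast-like cluster of over 50 cells in each library held Igfbp6 1.5-fold apart.

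Igfbp7, a secreted protein of vessel walls with weak affinity for IGF, was highest in vascular endothelial-like cells, at 1733 CPM (1519 to 1969) in the colotomy library and 850 CPM (809 to 893) in the sham library, 2.04-fold (1.77 to 2.34). Smooth muscle-like cells held 919 and 589 CPM (1.56-fold, 1.2 to 2.0). Fibroblast-like cells held 715 and 405 CPM (1.77-fold, 1.67 to 1.86), with 389 against 230 CPM in cluster 1, 667 against 464 CPM in cluster 2 and 868 against 903 CPM in cluster 6. Mesothelial-like cells held 680 and 326 CPM (2.08-fold, 1.67 to 2.59). As with Igf1, the gap in fibroblast-like cells was not seen within cluster 6.

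**Figure D4:**
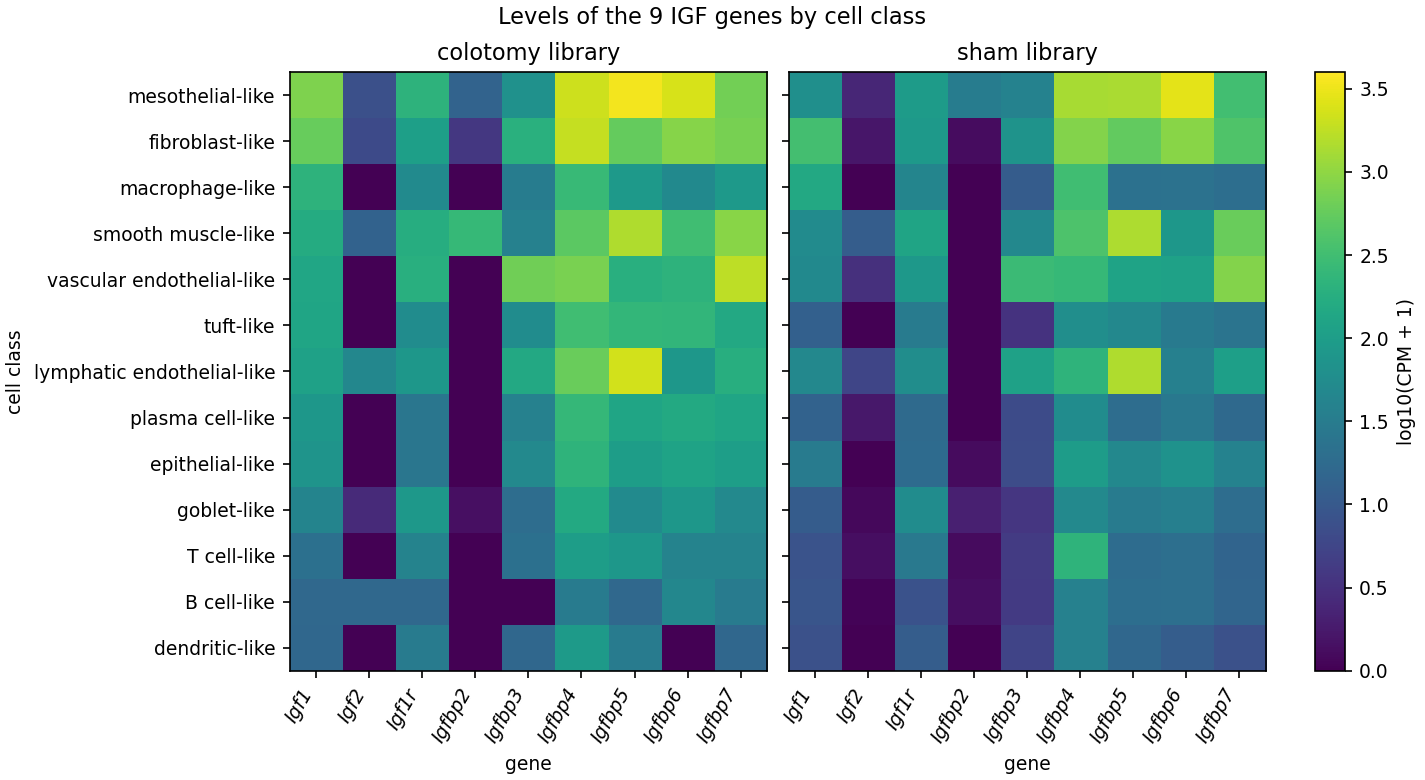
Level of the 9 IGF genes in 13 cell classes, as log10(CPM + 1) from dark (0) to yellow, for the colotomy library (left) and the sham library (right). Mesothelial-like and fibroblast-like rows are the brightest for Igfbp4 and Igfbp6, vascular endothelial-like for Igfbp7 (1733 and 850 CPM), and Igf2 and Igfbp2 are dark almost throughout.

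Counted over the list, 6 of the 9 genes had a level 1.5 or more times that of sham in fibroblast-like cells (Igf1, Igf2, Igfbp2, Igfbp3, Igfbp4 and Igfbp7), 0 were lower by that fold and 3 lay between (Igf1r, Igfbp5 and Igfbp6). Among all 14519 genes with at least 10 UMIs in the class, 17.3% were higher and 20.2% lower by that fold. The median log2 ratio was 0.82 over the 9 genes and -0.03 over all those genes. Igf2 and Igfbp2 entered on 21 and 11 UMIs. Within clusters 1, 2 and 6 the count of higher genes was 3, 4 and 4, where 16.7%, 18.2% and 19.8% of all genes measured were higher and 21.6%, 22.7% and 17.6% lower, and no IGF gene was lower. The 4 of cluster 6 are Igf1r, Igfbp3, Igfbp5 and Igf2. Igf2 there held 14 colotomy and 0 sham UMIs. Its bound with the floor count is 1.24-fold, short of 1.5-fold, and its counting interval runs from 0.883 up and takes in equal levels.

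In mesothelial-like cells 8 genes had at least 10 UMIs, of which 6 were higher (Igf1, Igf1r, Igfbp3, Igfbp4, Igfbp5 and Igfbp7) and Igfbp2 lower, against 22.3% and 29.5% of 10757 genes. Igfbp3 there rested on 10 and 54 UMIs (66.0 against 38 CPM, 1.74-fold, 0.789 to 3.45). The median log2 ratio was 0.93, against -0.09 over all those genes. In macrophage-like cells 7 genes were measured and Igfbp3, Igfbp5, Igfbp6 and Igfbp7 were higher, with 0 lower, against 20.8% and 27.7% of 11874 genes. The median log2 ratio was 1.23, against -0.10 over all those genes. All 4 higher genes were low there, at 31.5 to 84.1 CPM in the colotomy library. Each was below its level in plasma cell-like cells of that library (37.5, 130, 154 and 129 CPM in the same order). Within cells with no UMI of the fibroblast markers, Igfbp3 held 1 colotomy UMI (3.46 against 6.27 CPM) and Igfbp6 2 (6.92 against 10.9 CPM), too few to tell either from equal levels (log2 ratio -6.25 to 1.84 and -3.77 to 1.35).

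The other classes were counted in the same way. Of 7 IGF genes measured, 6 were higher and 0 lower in vascular endothelial-like cells (25.3% and 28.7% of all genes measured there), in epithelial-like cells (25.8% and 23.0%) and in goblet-like cells (14.2% and 13.3%), and 7 of 7 were higher in plasma cell-like cells (23.2% and 21.5%). In lymphatic endothelial-like cells 4 of 7 were higher (28.4% and 31.2%), in smooth muscle-like cells 4 of 8 (25.5% and 30.9%) and in tuft-like cells 6 of 6 (23.8% and 27.2%), with 0 lower in each. Higher values thus stood in epithelial and antibody-secreting cells as well as in stroma. The median log2 ratio was 2.67 in plasma cell-like, 2.53 in tuft-like, 1.41 in goblet-like, 1.19 in vascular endothelial-like and 1.18 in epithelial-like cells. Over all genes measured in these classes it lay from -0.02 to 0.08. Only lymphatic endothelial-like (0.74) and smooth muscle-like cells (0.55) had a median below the 0.82 of fibroblast-like cells. In T cell-like cells 5 of 7 were higher and Igfbp4 lower (27.2% and 49.3%), in B cell-like cells 4 of 7 higher and Igfbp3 lower (26.4% and 49.0%), and in dendritic-like cells 5 of 6 higher and Igfbp6 lower (28.5% and 31.6%). These counts rest on at most 6 colotomy UMIs per gene, and the 3 lower genes held 5, 0 and 0.

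**Figure D5:**
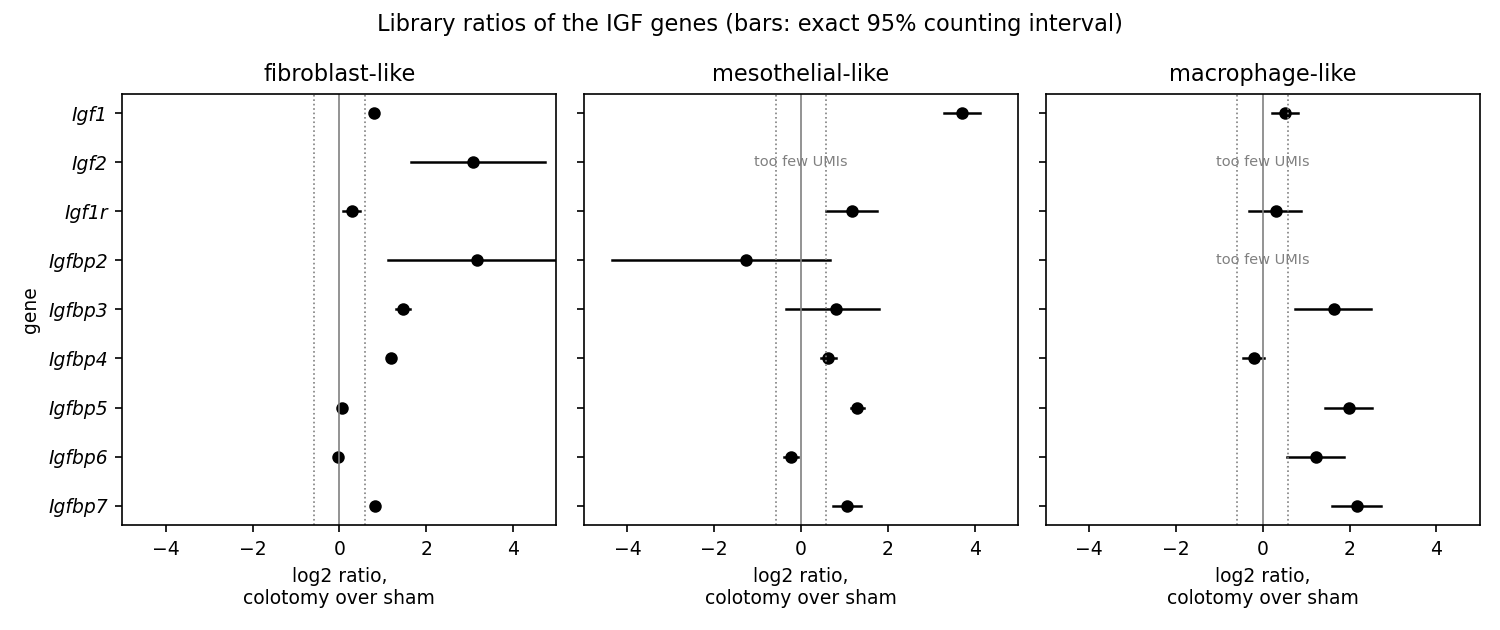
Log2 ratio of colotomy over sham level for each IGF gene in 3 cell classes (points) with exact 95% counting intervals (bars), a solid line at equal levels and dotted lines at 1.5-fold. Igf1 in mesothelial-like cells is farthest right at 3.71, and Igfbp6 lies near 0 in fibroblast-like and mesothelial-like cells.

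Of the 33 other genes of IGF signalling, 30 could be measured in fibroblast-like cells, of which 13 were at least 1.5-fold higher, 3 lower and 14 between, where 17.3% of all genes measured in the class were higher and 20.2% lower. H19, a noncoding RNA imprinted together with Igf2, stood at 64.7 against 10.3 CPM (6.26-fold, 4.87 to 8.08). Plagl1, an imprinted transcription factor that acts on that locus, stood at 25.6 against 8.67 CPM (2.95-fold). Pappa, the protease that cuts Igfbp4, stood at 45.5 against 19.3 CPM (2.35-fold), and Igf2r, the receptor that clears IGF-2, at 182 against 79.4 CPM (2.29-fold). Ghr, the growth hormone receptor upstream of Igf1, was 2.01-fold higher and the adaptor Grb10, a brake on the receptor, 1.85-fold higher. The 3 lower genes act downstream of the receptors: the transcription factor Foxo1 stood at 56.5 against 114 CPM, the substrate Irs2 at 29.5 against 58.0 CPM and Stat5a at 16.4 against 26.3 CPM.

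In mesothelial-like cells 22 of the 33 were measured, of which 6 were higher, 4 lower and 12 between (22.3% and 29.5% of all genes). Grb10 (2.35-fold, 1.24 to 4.19) had an interval above 1, while those of Igf2r (1.83-fold), the insulin receptor Insr (1.75-fold) and Stat5b (1.72-fold) took in 1. Irs2 held 2 colotomy and 93 sham UMIs (0.202-fold, 0.0241 to 0.750). Foxo3 held 1 and 46 UMIs (0.204-fold, 0.00506 to 1.2), and Socs2, a feedback inhibitor of growth hormone signalling, 3 and 76 (0.371-fold, 0.0748 to 1.12). In macrophage-like cells 20 were measured, with 6 higher, 5 lower and 9 between (20.8% and 27.7% of all genes). The higher ones were led by the RNA-binding protein gene Igf2bp2 (31.5 against 5.05 CPM, 6.24-fold), Igf2r (103 against 18.5 CPM, 5.58-fold), the secreted protease Htra1 (2.90-fold) and Socs2 (2.31-fold). The lower ones were Irs2 (0.299-fold), Mtor (0.375-fold), Foxo1 (0.406-fold), Stat5b (0.504-fold) and Stat5a (0.597-fold). Pathway genes were not read by cluster or in cells without fibroblast markers. Those markers summed to 3178 CPM in colotomy and 270 CPM in sham macrophage-like cells. The part of fibroblast RNA or of the cluster mix in these pathway values was not tested. Irs2 was at least 1.5-fold lower in all 3 classes and Igf2r at least 1.5-fold higher in all 3.

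Over the 26 profiles formed by 13 classes in 2 libraries, the genes with levels most like Igf1 among 12534 were Timp2 (Pearson r of log2(CPM + 1) 0.91), Ecm1 and Lrp1. Those most like Igfbp4 were Ecm1 (0.93), Ildr2 and Timp2, so that Igf1 and Igfbp4 had 2 of their nearest genes in common. Igfbp5 lay nearest to Rhoj (0.93), Zfpm2 and Prss23, Igfbp6 to Nbl1 (0.95), Fbln1 and Col6a1, and Igfbp7 to Cavin1 (0.96), Sparc and Tgfbr3. Igfbp3 lay nearest to Crip2 (0.91), Lamc1 and Timp3, and Igf1r to Arhgef12 (0.90), Nfia and 2310022B05Rik. The profiles share libraries and differ in depth, so these correlations only describe likeness. Igf2 and Igfbp2 had too few UMIs to be placed.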

How the data were processed

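The authors deposited raw UMI counts per gene and hashtag for each barcode, made with Cell Ranger 6.0.0 per the file headers, and per the submitters' processing notes aligned to mm10. STAR 2.5.1b, Seurat and Space Ranger are also listed there, with no role given. Kept cells of both libraries were clustered with scanpy 1.11.5 (2000 variable genes without the IGF genes, 30 principal components, 15 neighbours, Leiden resolution 1). A cluster was named when at least 3 markers of a set were in at least 10% of its cells and at least 2-fold higher than in all other cells, and no other lineage came near. Scrublet called 0 doublets, so none was removed. UMIs were summed per class and library. CPM intervals are exact Poisson, ratios exact conditional binomial (scipy 1.17.1), all at 95%. Only the ratio code was run on simulated data, drawn as Poisson counts without variation between cells or animals. Against a count of 0 a fold is a lower bound, set with a floor of 3 counts over the class, while calls of 1.5-fold use the levels themselves. PCR and free RNA are not covered. The members, gene lists, naming rules and alternatives were chosen with earlier results of these data known. All 9 genes are named, with up to 6 pathway genes per direction and class (at least 1.5-fold, 30 UMIs) and the 3 most alike genes with at least 200 UMIs.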

Additional observations from a re-analysis of the deposited data

How the results depend on the processing

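No paired analysis was possible because each group has 1 library. Ratios are log2 colotomy over sham. Igf1 in fibroblast-like cells (0.80) moved to 0.63 without the highest Scrublet scores, 0.65 with cells named by their own markers, 0.64 as a mean over cells, 0.64 after subtraction of plasma cell-like levels, 1.11 in cells with Y-linked RNA and no Xist, 0.52 in cluster 1 and 0.60 in cluster 2, and turned to -0.20 in cluster 6. Igf1 in mesothelial-like cells (3.71) moved to 2.33 with cells named by their own markers and 4.55 in cells with no Col1a1 or Col1a2 UMI. Igf1 in macrophage-like cells (0.52) moved to 0.85 with at least 1000 UMIs. It was 1.23 in cells with Y-linked RNA and no Xist, on 14 colotomy UMIs. The value was 0.14 without fibroblast markers and 0.14 without Col1a1 or Col1a2. It was 1.06 in cluster 14, 0.084 in cluster 15 and -0.020 after subtraction of plasma cell-like levels. The count of 6 higher genes in fibroblast-like cells was 3 in cluster 1 and 4 to 6 otherwise, with 0 lower in every setting run. Among other genes at least 1.5-fold apart in the class, Igfbp7 in fibroblast-like cells turned in cluster 6 (-0.058). In mesothelial-like cells Igfbp3 turned after subtraction of plasma cell-like levels (-0.18) and Igfbp2 without Col1a1 or Col1a2 (0.89, on 1 colotomy UMI). In macrophage-like cells Igfbp3 and Igfbp6 turned with cells named by their own markers (-1.25 and -1.27), without fibroblast markers (-0.86 and -0.65, on 1 and 2 colotomy UMIs), without Col1a1 or Col1a2 (-0.30 and -0.84) and in cluster 15 (-0.25 and -1.23). Turned directions of genes less than 1.5-fold apart in the class are not listed in full. Among them, Igfbp4 in macrophage-like cells (-0.20) stood at 1.15 in cluster 14 and 0.18 in cluster 15. Igf1r there (0.31) stood at -0.28 and -0.34. Apart from settings built on fewer cells, the cause was not tested. Settings on single clusters, on fibroblast markers or collagen UMIs and on plasma cell-like levels were chosen after seeing the data. No ratio was taken for mesothelial-like cells with Y-linked RNA and no Xist (8 and 241 cells) or without the 9 fibroblast markers (1 and 18), and at Leiden resolution 0.5 no cluster was named macrophage. The shallower colotomy library, with a median of 778.5 UMIs per kept cell, limits the rare genes Igf2 and Igfbp2 and every class under 100 cells.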

Other observations

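Igfbp4 was also found in lymphocytes of the sham library. T cell-like cells held 220 CPM (212 to 230, 2344 UMIs in 7868 cells) and B cell-like cells 37.7 CPM (34.6 to 41.0), so the classes lay apart within 1 library. In the colotomy library these classes held 5 and 2 Igfbp4 UMIs, too few to compare. An unnamed cluster with neutrophil genes and fibroblast RNA held 5.56% of the Igf1 UMIs of the colotomy library and 0.132% of those of the sham library. Both shares lay below its share of all UMIs, which was 6.91% and 0.292%. The only sham mesothelial-like cell with an Xist UMI held 7 of the 86 Igf1 UMIs of that class and library.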
